A study of Mus musculus with 10 samples.

Results

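Granins and the enzymes that cut neuropeptides out of their precursors were followed in mouse spinal cord during experimental autoimmune encephalomyelitis (EAE). The set held 10 genes, taken from the deposited gene table by symbol alone: Chga, Chgb, Scg2, Vgf, Scg3, Pcsk1, Pcsk2, Pcsk1n, Scg5 and Cpe. Each symbol matched 1 row of the 21936 genes in the table, and all 10 were among the 14595 genes expressed highly enough to test. EAE models multiple sclerosis: immune cells invade brain and spinal cord and strip axons of myelin. The 10 samples, all from wild type mice at day 14, were 5 called EAE and 5 called Nar in their titles, Nar standing for naringenin, a flavonoid of citrus fruit. However, the treatment field lists naringenin for every sample, which leaves the treatment of the EAE group unknown. No dose and no method of induction is stated in the labels, and cord from mice free of EAE was not analysed here. The labels are silent on whether each sample is its own animal. The p-values therefore set group differences against no more than the variation among these samples, and that variation may be technical.

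Neurons and endocrine cells store peptides in dense-core vesicles, which bud from the trans-Golgi network and release their content when calcium rises. Granins are acidic proteins that aggregate in the Golgi, help to load these vesicles and are themselves cut into peptides. Prohormone convertases cut precursors after pairs of basic residues, and carboxypeptidase E then removes the basic residues left at the end. In the spinal cord this route yields the peptides that dorsal horn neurons and sensory fibres release.

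Of the 10 genes, Chgb and Scg5 were higher and Scg3 was lower in Nar, and the other 7 did not pass the test (edgeR quasi-likelihood test, Benjamini-Hochberg adjusted p below 0.05 over all tested genes). Among all tested genes 3.93% passed, 1.58% higher and 2.36% lower in Nar. The changes were small: 19.3% more Chgb, 17.2% more Scg5, and Scg3 fell by 24.6%. Of the 10 fold changes 7 were above 0 and 3 below, with a median log2 fold change of 0.11, against 0.016 over all tested genes. Scg3 and Scg5 were the 2 genes whose groups did not overlap, 1 with Nar below and 1 with Nar above. Over all tested genes 5.79% did not overlap, 3.12% with Nar below and 2.67% with Nar above. In such bulk samples, fewer cells of a type and less RNA per cell cannot be told apart.

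**Figure D1:**
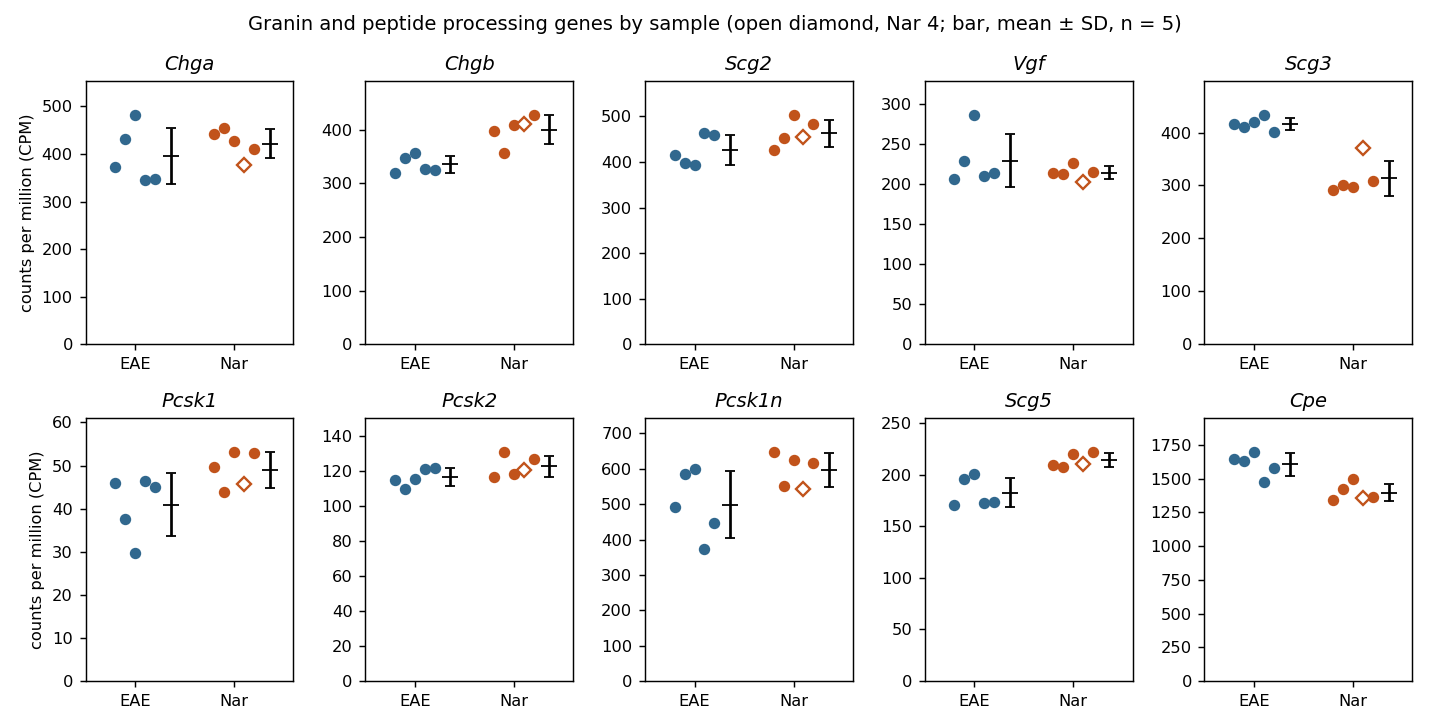
Level of each of the 10 genes (y axes, CPM with TMM-scaled totals) in the 5 EAE and 5 Nar samples. Points are samples, the open diamond is Nar 4, and bars give mean ± SD (n = 5). All Nar samples lie below all EAE samples for Scg3 and above them for Scg5, while the groups overlap for the other 8 genes.

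A regulatory sequence common to several of these genes can be shown. The cAMP response element, TGACGTCA, is the palindrome bound by CREB, a factor that responds to cAMP and calcium in neurons. It was searched on both strands in windows from 250 bases before to 50 bases after the gene start (RefSeq, GRCm38.p6). Of the 10 genes 8 had such a window, while Vgf and Cpe had none and were not searched. The element's presence in those windows was as follows. The full element was found in 3 of the 8, Scg2, Chgb and Pcsk1, and in 588 of all 32851 windows (1.79%). Of the peptide precursors discussed below, only Sst, the somatostatin precursor, was looked up by itself, so the windows of the others are not described. The 28 bases around the element are shown for the 3 genes and for Sst, with the element in capitals.
Scg2 (chr1:79440077-79440104, minus strand): gctgagccggTGACGTCAgcgtggaatg
Chgb (chr2:132781560-132781587, plus strand): ggctgctccgTGACGTCAgggctgagcg
Pcsk1 (chr13:75089769-75089796, plus strand): caggtagatcTGACGTCAagagatggct
Sst (chr16:23890875-23890902, minus strand): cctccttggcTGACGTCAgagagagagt
With the RefSeq start base counted as 0, the element began at base −68 in Scg2, −72 in Chgb, −78 in Pcsk1 and −48 in Sst. GENCODE M21 places some starts farther upstream, so that the element lies within an annotated exon of Scg2, Chgb and Sst, but not of Pcsk1. The shorter letters TGACG, which the full element contains, were in 7 of the 8 windows and in 20.8% of all windows. The TATA letters TATAAA were in 1 of the 8, Chga, against 13.6% of all windows, and the GC box GGGCGG was in 6 of the 8, against 35.7%. Scg3 and Scg5 lacked the full element in their windows, so the 3 genes that passed the test did not share it. A match of letters is a description and not evidence of binding.

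The levels differed far more between genes than between groups. Per length of transcript, Cpe was the most abundant of the 10 in every sample, at 621 ± 20.6 FPKM in EAE and 530 ± 22.8 in Nar (SD, n = 5 each, as for all values below). Its mean over the 10 samples stood at percentile 99.9 of the genes in the table. Pcsk1n followed at 229 ± 38.4 FPKM in EAE and 269 ± 22.1 in Nar, then Scg2 at 171 ± 17.2 and 182 ± 12.1. Pcsk1n and Scg2 changed places between EAE samples, so their order there was within their spread. Chga (145 ± 17.9 FPKM in EAE, 152 ± 10.3 in Nar), Chgb (123 ± 3.68 and 144 ± 10.6) and Scg5 (117 ± 6.54 and 135 ± 4.91) formed a group of like levels in which the ranks of Chga, Chgb and Scg5 met in Nar. Scg3 ranked 4 or 5 of the 10 in the EAE samples, at 153 ± 6.42 FPKM, and 6 or 7 in the Nar samples, at 113 ± 12.1. Vgf ranked 8 in all samples, at 77.7 ± 9.35 FPKM in EAE and 71.5 ± 2.85 in Nar. The convertases came last in all samples. Pcsk2 had 14.9 ± 0.931 FPKM in EAE and 15.3 ± 0.708 in Nar, and Pcsk1 had 7.40 ± 1.46 and 8.67 ± 0.780. Even Pcsk1 rested on 519 to 874 reads per sample, and Cpe on 19807 to 30734.

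**Figure D2:**
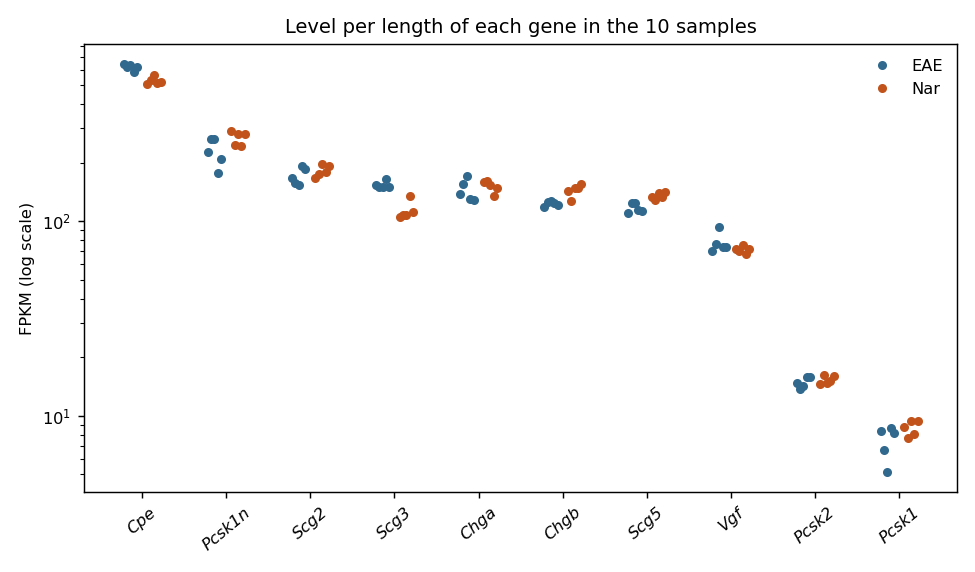
Level per length of the 10 genes (y axis, FPKM on a log scale) in the 5 EAE and 5 Nar samples, each point 1 sample, ordered by mean level in EAE. Cpe is at the top and Pcsk2 and Pcsk1 at the bottom in all samples, and Scg3 ranks 4 or 5 in the EAE samples and 6 or 7 in the Nar samples.

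Among the granins, Chgb rose in Nar. Chromogranin B, its product, is a matrix protein of dense-core vesicles (chromosome 2, 132781278 to 132795079, plus strand, GRCm38, as for all coordinates of genes). It stood at 319, 347, 357, 327 and 325 CPM (counts per M reads, with totals scaled by the TMM method) in EAE 1 to 5. In Nar 1 to 5 it stood at 397, 355, 409, 410 and 426 CPM. Nar 2 lay just below EAE 3, and the other 4 Nar samples lay above all EAE samples. This gave a log2 fold change of 0.25 (SE 0.059, 95% interval 0.13 to 0.38, edgeR adjusted p = 0.0333). The call was lost without any 1 of Nar 1, 3, 5 or EAE 1, 4, 5, with edgeR adjusted p between 0.0696 and 0.138, and held in 10 of 13 other settings.

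Chga and Scg2, which encode the related chromogranin A and secretogranin II, did not pass. Chga (chromosome 12, 102554969 to 102565028, plus strand) was at 373, 432, 481, 346 and 348 CPM in EAE 1 to 5 and at 443, 454, 427, 376 and 410 in Nar 1 to 5. The 2 highest EAE samples, EAE 2 and 3, lay within or above the Nar range, and the log2 fold change was 0.09 (SE 0.091; edgeR adjusted p = 0.579). Scg2 (chromosome 1, 79434669 to 79440120, minus strand) ran from 394 to 463 CPM in EAE, median 416, and from 425 to 502 in Nar, median 455. Its log2 fold change was 0.12 (SE 0.065, 95% interval −0.02 to 0.26, edgeR adjusted p = 0.285), so a rise of the size seen for Chgb lies just inside the interval.

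Vgf, induced in neurons by growth factors and activity, encodes a granin-like precursor of several peptides (chromosome 5, 137026392 to 137033351, plus strand). It was at 206, 229, 286, 210 and 215 CPM in EAE 1 to 5 and at 215, 213, 227, 203 and 216 in Nar 1 to 5. EAE 3 stood above all other samples, and the rest of both groups covered the same range. Its log2 fold change came to −0.10 (SE 0.083, edgeR adjusted p = 0.515) and −0.01 without EAE 3 (edgeR adjusted p = 0.954).

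Scg3 had the smallest p of the 10 and moved against Chgb. Secretogranin III, its product, binds chromogranin A and carboxypeptidase E and tethers them to the cholesterol-rich vesicle membrane (chromosome 9, 75643189 to 75684056, minus strand). It was at 415, 411, 420.1, 433 and 401 CPM in EAE 1 to 5. In Nar 1 to 5 it was at 292, 300.1, 298, 372 and 308 CPM. All 5 Nar samples lay below the lowest EAE sample, with Nar 4 nearest to the EAE group. Scg3 had a log2 fold change of −0.41 (SE 0.067, 95% interval −0.55 to −0.26, edgeR adjusted p = 0.00564). The 4 Nar samples other than Nar 4 lay close together, and without Nar 4 the log2 fold change was −0.47 (edgeR adjusted p = 3.76e-05). The call held in all 10 fits that left out 1 sample.

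Neither convertase passed the main test. Pcsk1 encodes the convertase that acts early on many precursors (chromosome 13, 75089826 to 75134861, plus strand). It was at 46.0, 37.6, 29.6, 46.5 and 44.9 CPM in EAE 1 to 5 and at 49.7, 43.9, 53.1, 45.6 and 52.9 in Nar 1 to 5. Nar 2 and 4 lay within the EAE range and the other 3 Nar samples above it. The log2 fold change was 0.26 (SE 0.115, edgeR adjusted p = 0.200), and 0.16 without EAE 3, the lowest sample (edgeR adjusted p = 0.245). Pcsk1 passed in 1 of 13 other settings, with the mean of the pan-neuronal markers as a covariate (0.32, edgeR adjusted p = 0.0185). Pcsk2, the convertase that often finishes the cutting (chromosome 2, 143546156 to 143816285, plus strand), ran from 110 to 122 CPM in EAE, median 115, and from 116 to 131 in Nar, median 121. Its log2 fold change was 0.07 (SE 0.055, 95% interval −0.04 to 0.19, edgeR adjusted p = 0.448). Of its exon bases, 4.54% are shared with the antisense genes Pcsk2os1 and Pcsk2os2, whose reads cannot be told apart without strand.

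The transcript for the partner protein of each convertase had a higher mean in Nar, and Scg5, for the partner of Pcsk2, passed. Scg5 encodes 7B2, the chaperone that the Pcsk2 enzyme needs to become active (chromosome 2, 113776362 to 113829121, minus strand). It was at 171, 195, 201, 172 and 174 CPM in EAE 1 to 5 and at 209.7, 207, 221, 211 and 222 in Nar 1 to 5. All Nar samples lay above all EAE samples, by a narrow gap between EAE 3 and Nar 2. The log2 fold change was 0.23 (SE 0.060, 95% interval 0.10 to 0.36), and the edgeR adjusted p of 0.0493 was close to the threshold. It was lost in 7 of the 10 fits that left out 1 sample, those without Nar 1, 2, 3 or 5 or EAE 1, 4 or 5, with edgeR adjusted p between 0.0763 and 0.178, and held in 6 of 13 other settings.

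Pcsk1n encodes proSAAS, a granin-like protein that inhibits the Pcsk1 enzyme (chromosome X, 7919822 to 7924410, plus strand). It was at 492, 585, 598, 372 and 446 CPM in EAE 1 to 5 and at 647, 552, 626, 542 and 615 in Nar 1 to 5. The EAE samples were widely spread: EAE 2 and 3 lay within the Nar range, and EAE 1, 4 and 5 below it. The log2 fold change of 0.26 was as large as that of Chgb, but with an SE of 0.116 it did not pass (edgeR adjusted p = 0.212). Of its exon bases, 6.16% are shared with Eras on the opposite strand.

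Cpe, the carboxypeptidase that trims the cut peptides and also helps to sort cargo, had a lower mean in Nar, as Scg3 and Vgf did (chromosome 8, 64592542 to 64693054, minus strand). It was at 1649, 1630, 1698, 1474 and 1581 CPM in EAE 1 to 5 and at 1339, 1423, 1495, 1356 and 1368 in Nar 1 to 5. Nar 3 lay above EAE 4, and the other 4 Nar samples lay below all EAE samples. Its difference of −0.20 on the log2 scale (SE 0.055, 95% interval −0.32 to −0.08) fell just short of the threshold (edgeR adjusted p = 0.0572). The gene passed in 9 of 13 other settings, among them limma-voom (adjusted p = 0.0426) and DESeq2 (adjusted p = 0.00709), and without EAE 4 (edgeR adjusted p = 0.0452).

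**Figure D3:**
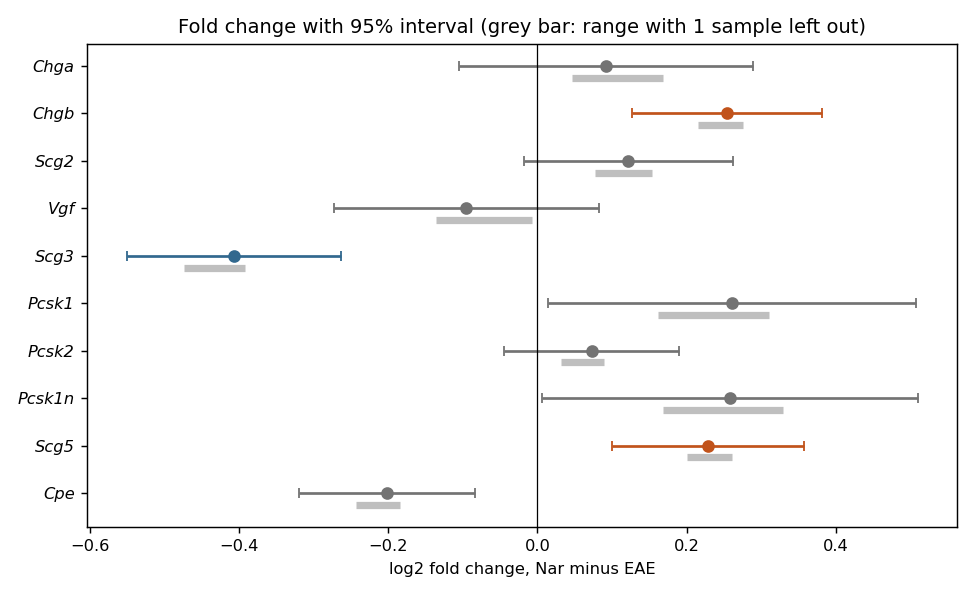
Log2 fold change of each of the 10 genes (x axis, Nar minus EAE) with its 95% interval from edgeR, and in grey the range when 1 sample at a time is left out. The interval of Scg3 is wholly below 0, as is that of Cpe, and those of Chgb, Scg5, Pcsk1 and Pcsk1n are wholly above it.

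The genes around the 10 in the secretory route were read from lists named by function. Of 18 other processing enzymes 17 were tested and 0 passed in edgeR, where 6 had an unadjusted p below 0.05; DESeq2 and limma-voom each called 1, lower in Nar, and limma-voom with sample weights 1 higher and 3 lower. Their median log2 fold change was −0.001, with 8 above 0 and 9 below. Pam, which amidates peptide ends, was at 0.04, and Cpd, a carboxypeptidase with an activity like that of Cpe, was at −0.001. The smallest p-values belonged to the convertase Pcsk6 (log2 fold change 0.24, edgeR adjusted p = 0.0915), the prolyl endopeptidase Prep (−0.21, edgeR adjusted p = 0.0949), the aminopeptidase Rnpep (−0.30, edgeR adjusted p = 0.124) and the endothelin-converting enzyme Ece2 (0.53, edgeR adjusted p = 0.135).

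Of 30 genes for making, moving and releasing dense-core vesicles, 1 passed, Syt5, higher in Nar. The median log2 fold change was 0.06, with 21 above 0 and 9 below. Syt5 encodes a synaptotagmin, one of the calcium sensors of vesicle release, and stood at 41.0 ± 5.34 CPM in Nar against 29.1 ± 4.92 (log2 fold change 0.49, SE 0.120, edgeR adjusted p = 0.0383). Its edgeR adjusted p was 0.0681 to 0.111 when Nar 1, Nar 3, Nar 5, EAE 2 or EAE 4 was left out. The next genes by p were Rab3a, a vesicle GTPase (522 ± 17.6 against 435 ± 48.9 CPM, edgeR adjusted p = 0.0584), Resp18, a small luminal protein (54.5 ± 2.38 against 40.8 ± 7.87 CPM, edgeR adjusted p = 0.0619), and Ica1l (log2 fold change 0.32, edgeR adjusted p = 0.0643). Of 21 genes of small synaptic vesicles and their fusion, 1 passed, Syn2, higher in Nar at 247 ± 13.8 CPM against 211 ± 8.33 (log2 fold change 0.23, edgeR adjusted p = 0.0376), and the median was 0.04. The edgeR adjusted p of Syn2 was 0.0587 to 0.134 when any Nar sample but Nar 2 or 4, or any EAE sample but EAE 3, was left out. For Vamp2, the vesicle SNARE, the log2 difference was 0.26 (edgeR adjusted p = 0.0501). Cplx2, a regulator of fusion, had 0.14 (edgeR adjusted p = 0.124).

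Among the 6 pathway lists, the precursors that pass through this route had the most calls. Of 30 neuropeptide and related precursor genes 7 were higher in Nar, and the other 23 did not pass, with a median log2 fold change of 0.37 and 23 values above 0. The 7 were Sst, Cck, Penk, Tac1, Npy, Grp and Tac2, all precursors that dorsal horn neurons make. Sst, the somatostatin precursor, was at 88.9, 84.8, 84.6, 62.2 and 81.8 CPM in EAE 1 to 5 and at 138, 103, 145, 118 and 136 in Nar 1 to 5. The groups did not overlap, and Sst had the smallest p of the 7 (log2 fold change 0.67, SE 0.109, edgeR adjusted p = 0.00644). Of the 7, it was the gene that passed in all 10 fits that left out 1 sample. Penk, the enkephalin precursor, stood at 147 ± 10.7 against 117 ± 8.54 CPM (log2 fold change 0.33, edgeR adjusted p = 0.0183). Tac1, which encodes substance P, was at 51.5 ± 6.25 against 36.7 ± 4.78 CPM (log2 fold change 0.49, edgeR adjusted p = 0.0193), and its relative Tac2 at 32.5 ± 6.63 against 21.5 ± 3.83 (0.60, edgeR adjusted p = 0.0464). Cck, the cholecystokinin precursor, was at 44.0 ± 6.93 against 29.9 ± 3.50 CPM (log2 fold change 0.56, edgeR adjusted p = 0.0172). Npy, the neuropeptide Y precursor, was at 16.1 ± 2.10 against 11.1 ± 1.38 CPM (0.54, edgeR adjusted p = 0.0232), and Grp, which encodes gastrin-releasing peptide, at 10.1 ± 1.76 against 6.52 ± 1.12 (0.63, edgeR adjusted p = 0.0383). The log2 fold changes of the 7 precursors were 0.33 to 0.67, and the largest among the 10 granin and processing genes was 0.26. The 7 were picked by passing the test, which favours large fold changes, so their higher values are partly set by that choice. The other 23 precursors ran from −0.59 to 0.55. The difference between the precursors and the 10 genes was not tested. The lowest fold changes in the list were those of Calca, the precursor of calcitonin gene-related peptide (−0.59, edgeR adjusted p = 0.248), and Ucn, the urocortin precursor (−0.59), neither of which passed. Calca was highest in EAE 2 and 3 (93.8 and 131 CPM), while EAE 4 and 5 lay within the Nar range. Ucn had few reads, with means of 0.556 CPM in Nar and 0.845 in EAE, and was highest in EAE 3 (2.17 CPM). The count of 7 fell to 1 without Nar 3 or without Nar 5, to 3 without Nar 1 and to 4 without EAE 4.

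**Figure D4:**
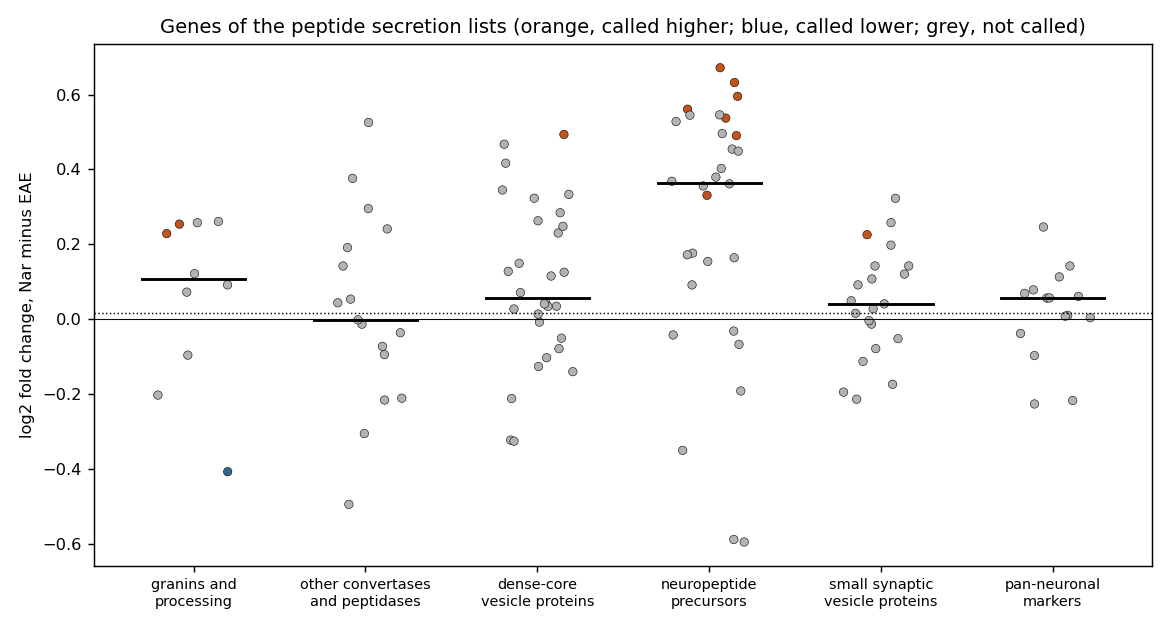
Log2 fold change of each tested gene (y axis, Nar minus EAE), by list. Each point is 1 gene, coloured where it passed the edgeR test, and the dotted line is the median of all tested genes. The precursors have 7 genes called higher and a median of 0.37, while the processing enzymes outside the 10 have none called.

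Activity-induced genes and transcription factors tied to secretory genes were mixed. Of 10 activity-induced genes 1 passed, Npas4, an early gene of excited neurons, at 5.84 ± 1.36 CPM in Nar against 3.17 ± 0.875 (log2 fold change 0.88, edgeR adjusted p = 0.0380). That call was lost (edgeR adjusted p 0.0575 to 0.119) in fits that left out Nar 1, Nar 3, Nar 5, EAE 2, EAE 4 or EAE 5. The list's median was −0.14. Fos and Junb did not pass with all samples (−0.36 and −0.58, edgeR adjusted p = 0.183 and 0.120), but without Nar 4 both were lower in Nar (−0.57 and −0.81, edgeR adjusted p = 0.000381 and 0.000682). Egr2, which also marks Schwann cells, had −2.21 (edgeR adjusted p = 0.0519). Of 10 regulators of secretory and neuronal genes, 1 passed, Pax6, lower in Nar at 11.4 ± 0.939 CPM against 15.3 ± 1.55 (log2 fold change −0.42, edgeR adjusted p = 0.0352), a call lost (edgeR adjusted p 0.0611 to 0.0936) when Nar 1, Nar 3, Nar 5, EAE 1, EAE 2 or EAE 4 was left out. Pax6 is a factor of neural progenitors and astrocytes that is also needed in endocrine cells. St18, Neurod1 and Insm1 had 0.33, 0.23 and −0.26 (edgeR adjusted p = 0.0910, 0.577 and 0.665).

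The genes whose pattern over the 10 samples was most like that of Scg3, by the mean squared difference of standardised log2 CPM, were Fzd10 (0.0228), Ctsa (0.0282), Ly9 (0.0306), Arhgap25 (0.0311) and Txnip (0.0315). All 5 were lower in every Nar sample than in any EAE sample, as the choice by likeness makes likely. Their log2 fold changes ran from −0.58 for Ctsa, a lysosomal carboxypeptidase, to −2.62 for Ly9, a receptor of lymphocytes. In each of the 5, as in Scg3, Nar 4 was the Nar sample nearest to the EAE group.

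Markers of the cell types in the tissue gave the following values beside these results. All 15 pan-neuronal markers had reads in every sample. In edgeR 0 of them passed, and 1 had an unadjusted p below 0.05; DESeq2 and limma-voom also called 0, and limma-voom with sample weights 2, higher in Nar. Their summed level was 11802 to 13930.5 CPM in Nar and 11201 to 14836 in EAE (two-sided exact permutation p = 0.849, n = 5 each), highest in EAE 3. Of the 6 motor neuron markers 0 passed in edgeR, 3 had an unadjusted p below 0.05, and DESeq2 called 2, limma-voom 1 and limma-voom with sample weights 3, lower in Nar. They summed to 210.0 to 360 CPM in Nar and 263 to 457 in EAE. Sensory neuron markers, of dorsal root ganglia that a dissection can carry along, summed to 62.0 to 90.1 CPM in Nar and 56.5 to 115 in EAE. Most of that sum was Prph, also a motor neuron marker, at 76.0 ± 11.8 CPM in Nar and 84.5 ± 27.0 in EAE. Mrgprd was at 0 in all samples, and Avil and P2rx3 were among the markers with reads in all 10. P2rx3 was at 1.16 ± 0.226 CPM in Nar and 1.79 ± 0.198 in EAE, without overlap, and did not pass (edgeR adjusted p = 0.131). The markers of adrenal chromaffin and pituitary cells, which are rich in granins, summed to 8.74 to 15.9 CPM in Nar and 7.21 to 12.1 in EAE. Of these 8 markers Pnmt and Lhb were at 0, and Th, Pomc and Tshb had reads in all 10 samples. Dbh, the enzyme that makes noradrenaline, had 104 reads over the Nar samples and 18 over the EAE samples. Its level was 0.0668 to 3.51 CPM in Nar and 0 to 0.479 in EAE, with overlap, and too low to be tested.

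Astrocyte and immune markers had lower means in Nar, as Scg3 and Cpe did. Nar 4 was the Nar sample nearest to the EAE group for Scg3, but not for Cpe. There Nar 4 was at 1356 CPM, within 1339 to 1495 for all Nar samples. Of 9 astrocyte markers 4 were lower and 0 higher in Nar, and their sum was 6028 to 6310 CPM in 4 Nar samples, 8646 in Nar 4 and 8163 to 9484 in EAE. Without Gfap, which was removed after its values were seen, the other 8 summed to 3484 to 3818 CPM in Nar, Nar 4 included, and 4058 to 4925 in EAE. Of the 9 microglia and macrophage markers 2 were lower and 0 higher in Nar. They summed to 248 to 289 CPM in 4 Nar samples, 738 in Nar 4 and 705 to 1085 in EAE. A large part of the difference in that sum was Lyz2, at 32.9 ± 36.9 CPM in Nar and 323 ± 139 in EAE. The 7 T cell markers summed to 1.55 to 3.67 CPM in 4 Nar samples, 10.3 in Nar 4 and 6.56 to 17.2 in EAE. Oligodendrocyte markers were on the other side, at 15190 to 17496 CPM in Nar and 11357 to 14189 in EAE. The part of these cell types in the values of Scg3 and Cpe was not tested.

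The share of mitochondrially encoded transcripts had a higher mean in Nar, as Chgb and Scg5 did. Its relation to these genes within the groups was not tested. The share was 7.04 ± 0.401% of counted reads in Nar and 5.69 ± 0.893% in EAE (two-sided exact permutation p = 0.0317, n = 5 each, where 0.0079 is the smallest possible). Because its means differ between the groups, a fit with the share as a covariate cannot fully separate share from group. With that share as a covariate, Chgb and Scg5 did not pass (log2 fold change 0.18 and 0.11, edgeR adjusted p = 0.278 and 0.477), and neither did Scg3 (−0.37, edgeR adjusted p = 0.0628). Cpe passed (edgeR adjusted p = 0.0478), and the median of the 10 genes moved from 0.11 to 0.01. The genes moved both ways: Pcsk1 was at 0.56, Scg2 at 0.25, Pcsk2 at 0.15 and Vgf at −0.32, farther from 0 than without the covariate, and none of these 4 passed (edgeR adjusted p 0.0637 to 0.303). None of the 30 precursors passed in that edgeR fit, where 13 had an unadjusted p below 0.05, and their median log2 fold change was 0.22 in place of 0.37. The log2 fold changes of Sst, Cck, Penk and Npy were smaller in it (0.42, 0.38, 0.20 and 0.34), that of Tac1 was 0.47, and those of Grp and Tac2 were larger (0.79 and 0.77). Without EAE 4, the sample of lowest share, the share's own difference had a permutation p of 0.0556. Depth also differed between the groups, at 14504726 to 15139706 counted reads in Nar and 16658798 to 18961501 in EAE. The 10 genes together took 0.404 to 0.433% of counted reads in Nar and 0.413 to 0.447% in EAE. The part of depth in these results was not tested.

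**Figure D5:**
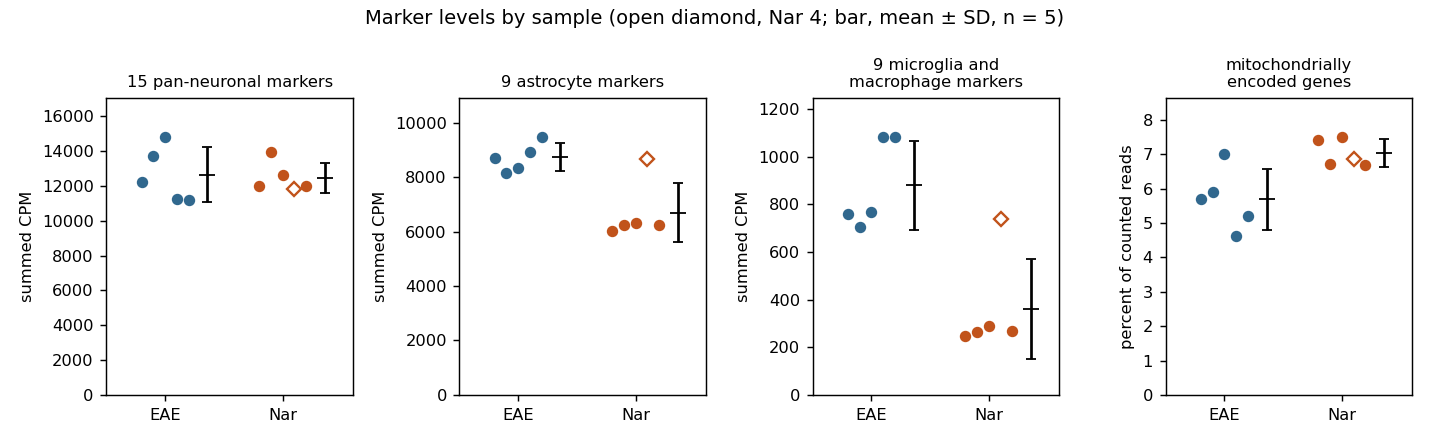
Summed marker levels (CPM) and the share of mitochondrially encoded transcripts (% of counted reads) in each EAE and Nar sample, with mean ± SD (n = 5) and Nar 4 as an open diamond. Pan-neuronal sums overlap, astrocyte sums are lower in 4 Nar samples and 8646 CPM in Nar 4, and mitochondrial shares have a higher mean in Nar.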

How the data were processed

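Per the labels' protocols, spinal cord RNA was extracted with Trizol, captured on poly-T beads, primed at random and sequenced as paired ends on an Illumina NovaSeq, with no strand-marking step named. Per the submitters' processing notes, cutadapt and HISAT2 2.0.5 were used. The sources used here do not give the counter or annotation. Raw read counts and FPKM values for 21936 genes were deposited by the authors in 10 count and 10 FPKM columns, per the file headers; 0 other sample columns were present. The authors' FPKM values equal count over length and column total, within 1% for 100% of 153986 values above 0.1. Identifiers matched GENCODE M21 (GRCm38) for 21817 genes.

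Samples were grouped by title. The counts went into edgeR 4.0.16 under R 4.3.3 (filterByExpr, TMM factors, robust quasi-likelihood fit, coded Nar minus EAE), with Benjamini-Hochberg adjustment over 14595 genes and a threshold of 0.05. SE is the size of the log2 fold change over the square root of F. CPM uses TMM-scaled totals; a prior count of 2 was added before taking log2. Single values were compared by exact permutation. The fit was tested on simulated data.

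The 10 genes and the lists were chosen with earlier results of these data known. The text names all 10, the 4 genes of smallest p in each of 6 pathway lists, all called ones where at most 8 were called, markers needed to say which were at 0, and the 5 genes closest in pattern to the gene of smallest p, Scg3. Of the genes this rule selects, 1 is not reported here. Pam, Cpd, Calca, Ucn and Lyz2 were added after their values were seen, and so was the search for regulatory letters. Alternatives were other size factors, filters and thresholds, DESeq2 1.42.0, limma 3.58.1 (voom with and without sample weights, and log2 of FPKM with 1 or 0.1 added), a replicate block, 2 covariates and leaving out each sample.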

Additional observations from a re-analysis of the deposited data

Results flagged for a closer look

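In 11 of 92 sets of 5 samples searched, 1 sample stood apart from the other 4 by more than Dixon's 95% limit, which chance alone does in about 1 in 20 sets (4.6 of 92). Among the granins, Scg3 in Nar 4 stood at 372 CPM, with 292 to 308 in the other Nar samples, and Vgf in EAE 3 at 286 CPM, with 206 to 229 in the other EAE samples. Sst, the somatostatin precursor, was at 62.2 CPM in EAE 4 and at 81.8 to 88.9 in the other EAE samples.

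The other 8 flagged sets were all in Nar 4, on the high side. The activity-induced genes Junb and Fos stood at 30.2 and 33.1 CPM there, with 14.1 to 17.4 and 18.2 to 19.8 in the other Nar samples. The summed astrocyte markers stood at 8646 CPM, with 6028 to 6310 in the others. Fzd10 was at 10.5 CPM (others 4.44 to 5.74), Ctsa at 126 (97.8 to 103), Ly9 at 4.93 (0.534 to 1.27), Arhgap25 at 7.76 (2.50 to 3.36) and Txnip at 24.0 (17.6 to 19.0). These last 5 genes were selected for their likeness to Scg3 and are not separate evidence. Without Nar 4 the number of genes called over the whole table went from 574 to 1486. The search did not cover every listed gene and marker sum. Outside it, Ptprn, of the dense-core vesicle list, was at 36.2 CPM in EAE 5 and at 206 to 234 in the other EAE samples. The summed microglia and macrophage markers were at 738 CPM in Nar 4 and at 248 to 289 in the other Nar samples.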

How the results depend on the processing

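In the reported fit 2 of the 10 genes were higher and 1 lower, 574 of all genes passed, 7 precursors and 3 other pathway genes were higher, and 1 pathway gene was lower. An adjusted p of 0.01 left 0 of the 10 higher, 117 genes in all, 1 precursor, 0 other pathway genes higher and 0 lower. At 0.1 they were 2 of the 10 lower, 1266 in all, 9 other pathway genes higher and 3 lower. Of the 10, 1 was higher with DESeq2 size factors, with no filter and, beside 2 lower, with a mean CPM of 1 or more or upper quartile factors. The DESeq2 test gave 2 of the 10 lower, 1308 in all, 8 other higher and 5 lower. Limma-voom gave 2, 881, 6 and 3, and with sample weights 2, 2999, 15 and 9, with 11 precursors. With the mitochondrial share as covariate, 0 of the 10 were higher, 197 genes passed, 0 precursors, 1 other higher and 0 lower, and the 1 of the 10 lower was Cpe in place of Scg3. That fit also reversed Chga (−0.16), Pcsk1n (−0.10) and Insm1 (0.57), which ran from −0.43 to 0.010 when 1 sample was left out, above 0 without EAE 4. With the pan-neuronal mean as covariate, 3 of the 10 were higher (Pcsk1 the added one) and 2 lower, 1654 genes passed, 11 precursors and 13 other genes were higher and 8 lower. On log2 FPKM with 1 or 0.1 added, 2 of the 10 were lower, 1 other higher and 0 lower, and with 1 added and no filter 0 of the 10 were higher, 0 other higher and 0 lower.

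Leaving out 1 sample gave 0 to 2 of the 10 higher and 1 to 2 lower, 161 (without Nar 1) to 1486 (without Nar 4) genes in all, 1 to 8 precursors, 0 to 8 other higher and 0 to 5 lower. The mitochondrial difference was then 1.08 to 1.68 percentage points and the pan-neuronal one −538 to 371 CPM (−174 with all samples), reversed without EAE 2 (96.2) and without EAE 3 (371). With the replicate number as a block, 0 of the 10 were higher and 2 pathway genes lower. Same-numbered samples correlated at −0.227 to 0.161 and none matched its own number best. These 5 correlations cannot settle whether the numbers pair the samples, which the labels do not state. Of 230 values of the 10 genes under alternatives, 192 kept their direction and call, 24 lost a call, 12 gained one and 2 were reversed. The 192 include genes that passed neither in the reported fit nor in the alternative. The call of Chgb held in 10 of 13 other settings and 4 of 10 fits without 1 sample, and that of Scg5 in 6 and 3. No scaling moved the median of all genes by over 0.1, and the 20 mean levels per length stayed within 1 SD with TMM-scaled totals. The causes were not tested.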

Other observations

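Among the 5 EAE samples, EAE 2 and 3 had the highest values of Chga (432 and 481 CPM), Chgb (347 and 357), Vgf (229 and 286), Pcsk1n (585 and 598) and Scg5 (195 and 201), and also of the summed pan-neuronal markers (13737 and 14836 CPM). Pcsk1 (37.6 and 29.6 CPM) and Scg2 (397 and 394) were lowest of all samples in the same 2. These samples were singled out after their values were seen.

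Over all tested genes, 395 had the full cAMP response element in their RefSeq start window, of which 11 were higher and 3 lower in Nar (3.54% called, median log2 fold change 0.045). Among the 11521 tested genes with any window, 164 were higher and 280 lower (3.85% called, median 0.017). The difference between the 2 was not tested.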
